A study of Mus musculus with 6 samples.

Results

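The miR-23, miR-27 and miR-24 microRNAs come from a pair of related gene clusters, and their reads were followed here through 6 small RNA libraries. Every deposited feature named miR-23a, miR-23b, miR-27a, miR-27b or miR-24 was taken, from either arm and with any copy number or isoform suffix, which gave 10 of 756 features. A feature is 1 deposited name with 1 sequence. Of the 10 features, 9 carried rat names and 1 a guinea pig name, although all were placed on mouse chromosomes.

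All 6 libraries were labelled as Mes23.5, a dopaminergic hybrid line with mouse neuroblastoma and rat midbrain parents, stimulated for 24 h with LPS, a component of bacterial cell walls. In the SIX2_EV group, 3 libraries came from cells given extracellular vesicles of microglia that overexpressed the transcription factor SIX2. In the control_EV group, 3 libraries came from cells given vesicles of control microglia. The growth protocol names BV2, a mouse microglial line, so the cell of origin is given only as labelled, and nothing says that the libraries of a group came from separate cultures. P-values therefore rest on the spread among these libraries alone, and that spread may be technical.

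A microRNA hairpin is cut by Drosha and Dicer into a duplex whose arms, 5p and 3p, can each be loaded into Argonaute, where bases 2 to 8, the seed, pair with target transcripts. The a cluster makes miR-23a, miR-27a and miR-24-2 from 1 primary transcript, and the b cluster makes miR-23b, miR-27b and miR-24-1. As background, miR-23 represses glutaminase and, as miR-23b, kinase adaptors of the NF-kB pathway, miR-27 represses the nuclear receptor PPAR-gamma and responds to LPS in macrophages, and miR-24 is known for repressing pro-apoptotic genes such as Bim.

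The 3p sequences are shown because the a and b forms can be told apart at a single base. Capitals mark the seed, and letters are as deposited, with T for U.
miR-23a-3p: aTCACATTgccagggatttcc
miR-23b-3p: aTCACATTgccagggattaccac
miR-27a-3p: tTCACAGTggctaagttccgc
miR-27b-3p: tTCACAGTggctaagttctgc
miR-27a-3p, guinea pig name: tTCACAGTggctaagttccgt
miR-24-3p: tGGCTCAGttcagcaggaac

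Counted from the 5′ end, miR-23b-3p differed from miR-23a-3p by T19A, and the deposited form ran on for 2 more bases. miR-27b-3p differed from miR-27a-3p by C19T. Both differences lie outside the seed, so the a and b forms share it, and no other mature feature in the table had the seed of miR-23-3p, miR-27-3p or miR-24-3p. The guinea pig named form differed from miR-27a-3p by C21T, its last base. The deposited miR-24-3p was 2 bases shorter at its 3′ end than the RefSeq form. The miR-23 and miR-27 3p features all hold base 19, so each feature could be assigned to a or b by its deposited sequence. In the third control_EV library the counts of the rat-named ones were not whole. They were 2195.5 for miR-23a-3p, 640.5 for miR-23b-3p, 1524.5 for miR-27a-3p and 3901.5 for miR-27b-3p. Some reads there may have been divided between rows, which was not tested.

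The 5p sequences are shown because each marks 1 hairpin, again with the seed in capitals.
miR-23a-5p: gGGGTTCCtggggatgggattt
miR-27a-5p: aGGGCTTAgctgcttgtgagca
miR-27b-5p: aGAGCTTAgctgattggtgaaca
miR-24-2-5p: gTGCCTACtgagctgaaacagt

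For miR-24 only the 5p arm tells the genes apart. The RefSeq hairpins (GRCm38.p6, plus strand), with both mature arms in capitals, end in the same 3p arm.
Mir24-2: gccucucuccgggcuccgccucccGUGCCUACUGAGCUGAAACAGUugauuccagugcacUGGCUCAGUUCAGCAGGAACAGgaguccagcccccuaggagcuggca
Mir24-1: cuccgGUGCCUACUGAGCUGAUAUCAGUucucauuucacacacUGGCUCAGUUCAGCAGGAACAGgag
RefSeq miR-24-1-5p is 1 base longer than miR-24-2-5p. Compared position by position without gaps over 22 bases, it differs at 5 positions, A17T, C19T, A20C, G21A and T22G. In the printed hairpins the differences from position 19 on can be read as a shift by 1 inserted base, which leaves A17T as the substitution. The table divided the reads of miR-24-3p evenly between both loci, and these were summed, so miR-24-3p belongs to neither cluster below. No row named for the 5p arm of miR-24-1 was matched.

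In RefSeq (GRCm38.p6) the a cluster spans 404 bp of chromosome 8, from Mir23a at 84208518 to Mir24-2 at 84208921. GENCODE M21 places no host gene on its strand, apart from the non-coding gene Gm26532, which starts at 84208920 within the end of Mir24-2. The b cluster spans 792 bp of chromosome 13, from 63300484 to 63301275, inside the protein-coding gene 2010111I01Rik, also called Aopep, on the same strand. Mir23b lies in an intron there, whereas Mir27b and Mir24-1 each lie whole within 1 annotated exon of it. The deposited positions, such as 84935147 to 84935223 on chromosome 8 for miR-23a and 63448277 to 63448382 on chromosome 13 for miR-23b, are in a build that is not named and were not mixed with these.

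Deposited reads numbered 179621 to 232635 in SIX2_EV and 257628 to 421279 in control_EV. In each group the third library differed from the rest: sequences named mir-1285 took 7.94% and 7.47% of its reads, against at most 0.447% in the remaining libraries. Although the labels give dopamine cells, no feature was named miR-124-3p, a neuronal marker. The 3 neuronal markers of 8 that were matched by exact name summed to 2053.5 to 3037.6 CPM in SIX2_EV and 2282.0 to 3167.7 CPM in control_EV, and 6 of 8 myeloid marker names to 30880.8 to 32590.9 and 24802.8 to 45427.2 CPM. Most of the neuronal sum was miR-7a-5p, at 1569 to 2761 CPM. miR-128-3p stood at 76.1 to 277.9 CPM and miR-129-5p at 0 to 435.1 CPM over the libraries. The myeloid list held alternative names of miR-142 and the neuronal list no alternative names, so the numbers of matched names are not comparable. Most of the myeloid sum was 1 miRNA, miR-146a-5p, known to respond to LPS, at 18804 to 39867 CPM. miR-142-5p stood at 2548 to 4052 CPM and miR-142-3p at 405.8 to 1516 CPM over the libraries. miR-155-5p stood at 139.9 to 222.5 CPM and miR-150-5p at 0 to 95.7 CPM. miR-223-3p was listed at 0 in the first and second SIX2_EV libraries and reached 411.9 CPM. CPM are read counts brought to a common library size by TMM, a method that aligns libraries on the bulk of their features.

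The first question was how much of each library these miRNAs made up. Over all 10 features they took 0.512% (Wilson interval at 95%, 0.48 to 0.546), 0.335% (0.312 to 0.359) and 1.05% (1.01 to 1.10) of deposited reads in SIX2_EV. In control_EV they took 1.36% (1.31 to 1.40), 2.09% (2.03 to 2.14) and 2.38% (2.33 to 2.42). Each SIX2_EV library lay below each control_EV library, with means of 0.634% ± 0.375 and 1.94% ± 0.526 (SD, n = 3). The exact two-sided permutation p was 0.1, the smallest that 3 against 3 libraries allow, and 1 after Benjamini-Hochberg adjustment over the 11 shares and ratios compared here. The intervals hold counting error and nothing else, because PCR copies of 1 molecule were not marked.

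Mature miRNA as a whole was also lower on average in SIX2_EV, although its groups overlapped. Names of mature miRNAs with a mouse hairpin took 13.9%, 6.78% and 32.6% of reads in SIX2_EV and 31.5%, 56.7% and 70.8% in control_EV. Within those mature reads, the 9 mature members took 3.65% (3.43 to 3.89), 4.87% (4.54 to 5.21) and 3.21% (3.07 to 3.35) with SIX2_EV. With control_EV they took 4.25% (4.12 to 4.40), 3.64% (3.55 to 3.74) and 3.31% (3.25 to 3.38). The means were 3.91% ± 0.858 and 3.74% ± 0.479 (SD, n = 3), the groups overlapped, and the exact permutation p was 0.8. Groups that lay apart in all reads thus overlapped within mature reads. A lower share can come from less of these miRNAs or from more reads of other sequences, and shares of reads cannot tell these apart. The cause was not tested.

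**Figure D1:**
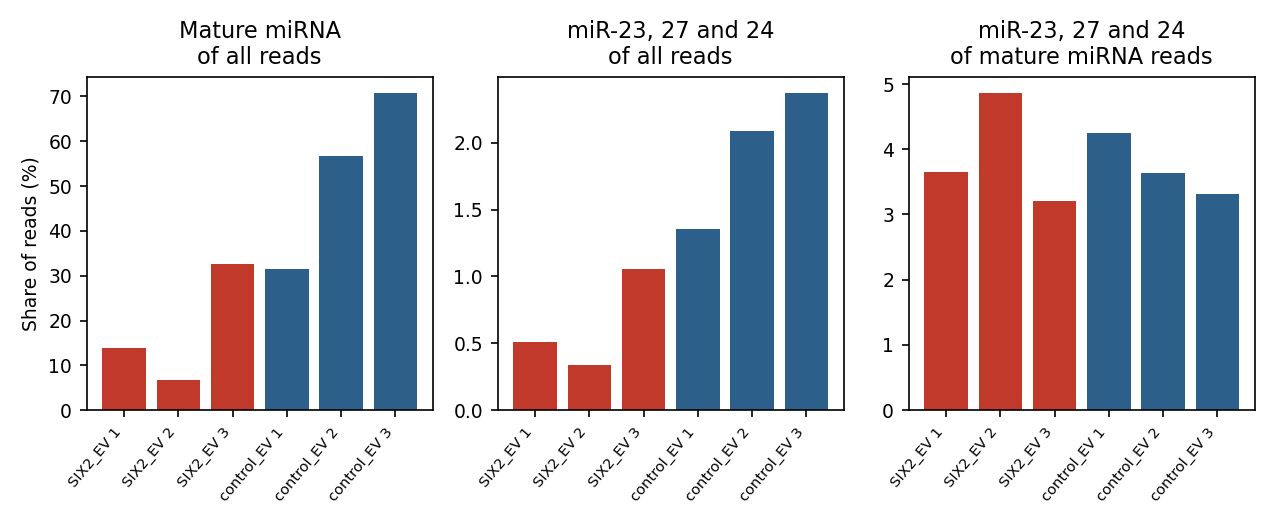
Share of reads in each library, in percent, for mature miRNA among all reads (left), the 10 miR-23, miR-27 and miR-24 features among all reads (middle) and the 9 mature ones among mature reads (right). Each bar is 1 library, red for SIX2_EV and blue for control_EV; the middle panel separates the groups (at most 1.05% against at least 1.36%), whereas the right panel does not (3.21% to 4.87% against 3.31% to 4.25%).

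The second question was which members were abundant. miR-27b-3p led in all 6 libraries. It was read 318, 290 and 833 times in the SIX2_EV libraries, and 1137, 1821 and 3901.5 times in those of control_EV. It ranked 10 among 384 mature features by mean CPM. Scaled, these were 3023, 4058 and 3788 CPM for SIX2_EV against 4158, 4357 and 3486 CPM for control_EV, and the groups overlapped, the lowest being the first SIX2_EV library.

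Next came miR-23a-3p, at 2234, 2337 and 1537 CPM with SIX2_EV vesicles against 2768, 2866 and 1962 CPM with control_EV vesicles. The third library was the lowest of each group, and the groups overlapped. For miR-27a-3p the SIX2_EV libraries gave 1455, 1973 and 1614 CPM and those of control_EV 2574, 2129 and 1363 CPM, again overlapping. For miR-24-3p they gave 1445, 2085 and 1023 CPM, and 2399, 2455 and 1131 CPM, respectively, with the third library lowest in both groups.

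miR-23b-3p was the scarcest of the 5 rat-named 3p features in all 6 libraries. Its reads ran from 21 in the second SIX2_EV library to 640.5 in the third control_EV library. The levels were 427.8, 293.9 and 582.1 CPM against 453.4, 401.9 and 572.7 CPM. Unlike miR-24-3p, it was highest in the third library of each group.

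At the top and the bottom of this order the ranges of neighbours did not overlap. miR-27b-3p exceeded miR-23a-3p in 6 of 6 libraries by 1.35 to 2.46 times, and miR-24-3p exceeded miR-23b-3p by 1.76 to 7.09 times, with no overlap within either group. miR-23a-3p exceeded miR-27a-3p in 5 of 6 libraries and miR-27a-3p exceeded miR-24-3p in 4 of 6, and their ranges overlapped in each group. Further apart in the order, miR-23a-3p exceeded miR-24-3p in 6 of 6 libraries, by 1.12 to 1.73 times, though their ranges over libraries overlapped in each group. All are of nearly equal length, 20 to 23 bases, so these levels were compared without a length correction, though reads per molecule can differ between sequences.

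**Figure D2:**
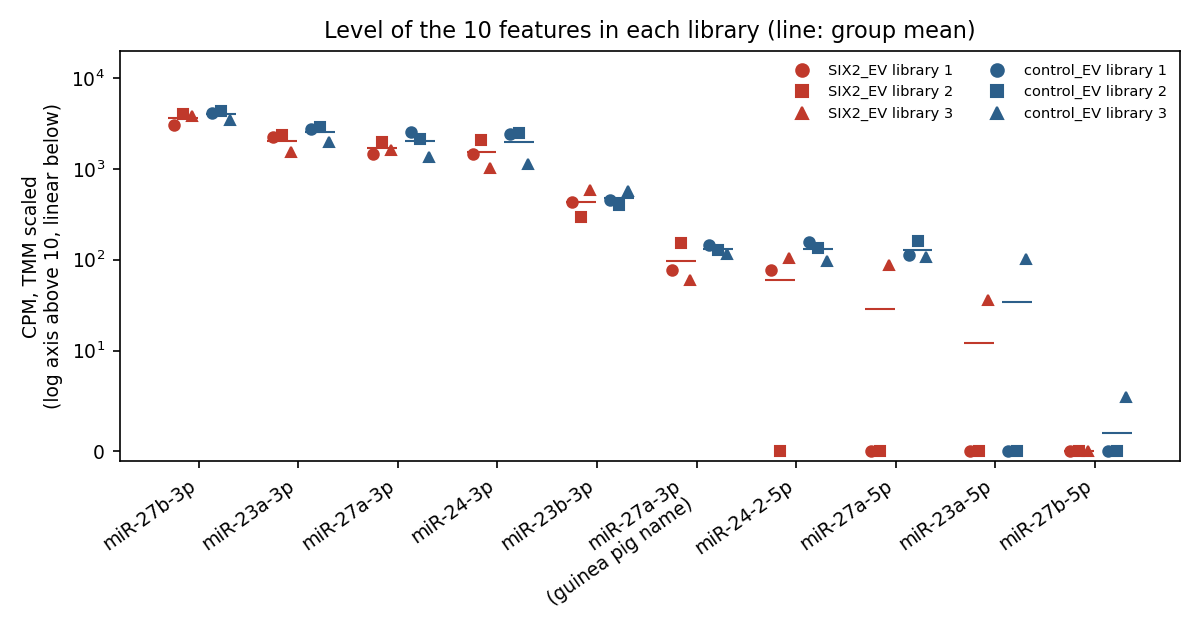
Level of each of the 10 features in TMM-scaled CPM (vertical axis, log above 10 and linear below), with SIX2_EV in red, control_EV in blue, the symbol giving the library and the line the group mean. The 5 rat-named 3p features form the upper set, from miR-27b-3p at 3023 to 4357 CPM down to miR-23b-3p at 294 to 582 CPM; the guinea pig named form, at 59.1 to 153.9 CPM, lies among the 5p features, 4 of which are at 0 in some library.

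The third question was whether any member differed between the groups. By edgeR's quasi-likelihood test with Benjamini-Hochberg adjustment, 0 of 8 tested members passed 0.05, and 0 of all 319 tested features did (0.0%). At an unadjusted p under 0.05 there were 0 of 8 members, against 38 of 319 features (11.9%). By limma-voom 1 member, miR-27a-5p, had an unadjusted p under 0.05, against 61 features (19.1%), and its adjusted p was 0.202. DESeq2 called 0 of 8 members and 20 of 319 features (6.27%). miR-23a-5p and miR-27b-5p were too scarce to pass the filter on low counts.

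For the abundant 3p forms the estimates were about as large as their standard errors or smaller. By edgeR the log2 fold change of SIX2_EV over control_EV was -0.14 (SE 0.23, adjusted p 0.87) for miR-27b-3p and -0.32 (SE 0.28, adjusted p 0.68) for miR-23a-3p. It was -0.27 (SE 0.30, adjusted p 0.784) for miR-27a-3p and -0.40 (SE 0.41, adjusted p 0.775) for miR-24-3p. For miR-23b-3p it was -0.13 (SE 0.39, adjusted p 0.945), and its sign turned in 5 alternative analyses, 3 of them another tool or a narrower set of features, with values of 0.00 to 0.14. Without the third SIX2_EV library those of miR-27b-3p, miR-23a-3p, miR-27a-3p and miR-24-3p moved to between -0.13 and -0.03. That of miR-27b-3p turned in 1 analysis, fitted on mature miRNAs with a mouse hairpin alone, to 0.05.

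All 8 tested members had negative values under TMM, with a median of -0.36. This stood beside 200 of 319 features (62.7%) negative with a median of -0.28, and 156 of 203 other tested mature features with a median of -0.41. Without the third SIX2_EV library the median was -0.10 for the members and -0.47 for all tested features, so their order turned. With total counts in place of TMM the median of all tested features shifted to -1.52 and that of the members to -1.78. On that scale 2 members, miR-24-3p and miR-23a-3p, had an unadjusted p under 0.05 (log2 fold changes of -1.83 and -1.74), against 11.3% of all features, and their adjusted p was 0.349 by edgeR.

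**Figure D3:**
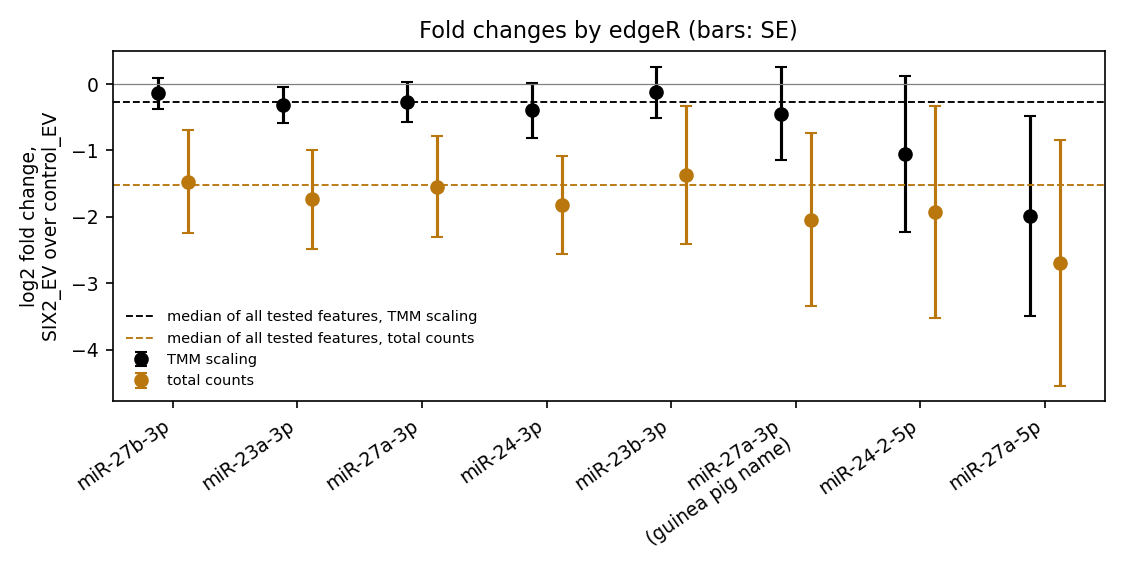
Log2 fold change of SIX2_EV over control_EV (vertical axis; bars are SE) for the 8 tested members by edgeR with TMM scaling (black) and with total counts (orange), n = 3 libraries per group. Dashed lines are the medians of all 319 tested features, -0.28 and -1.52, and the 3p members lie within 1 SE of them under either scaling.

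The fourth question was how the a and b clusters compared. In every library miR-23 was mostly the a form and miR-27 mostly the b form. The b share of miR-23-3p reads was 16.1% (Wilson interval 12.2 to 20.8), 11.2% (7.42 to 16.5) and 27.5% (23.6 to 31.7) with SIX2_EV vesicles. With control_EV vesicles it came to 14.1% (11.9 to 16.5), 12.3% (10.7 to 14.1) and 22.6% (21.1 to 24.1). It was highest in the third library of each group, whose intervals lay above those of the remaining libraries.

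The b share of miR-27-3p reads, with the guinea pig named form counted as a, was 66.4% (62.04 to 70.5), 65.6% (61.1 to 69.9) and 69.4% (66.7 to 71.9) in SIX2_EV. In control_EV it was 60.4% (58.2 to 62.6), 65.9% (64.1 to 67.6) and 70.2% (69.04 to 71.4). It too was highest in the third library of each group, but in SIX2_EV within the intervals of the other two.

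Neither share separated the groups. The means were 18.2% ± 8.36 and 16.3% ± 5.50 for miR-23 (SD, n = 3; exact permutation p 0.7) and 67.1% ± 1.98 and 65.5% ± 4.91 for miR-27 (SD, n = 3; exact permutation p 0.8), in SIX2_EV and control_EV. Leaving out the third SIX2_EV library turned the difference for miR-23 to -2.70 percentage points, and leaving out the second control_EV library to -0.0933. Without the first control_EV library the difference for miR-27 turned to -0.934. In replicates 1 and 2 alone, SIX2_EV minus control_EV was 0.434 percentage points for miR-23 and 2.85 for miR-27, and between the third libraries 4.88 and -0.888 points.

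**Figure D4:**
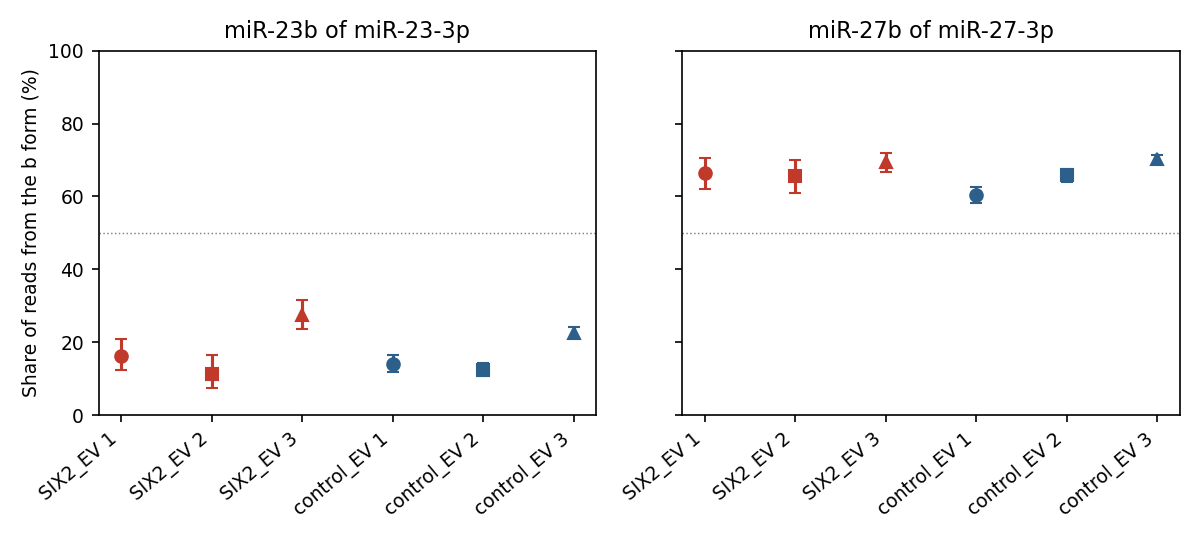
Share of miR-23-3p reads from miR-23b (left) and of miR-27-3p reads from miR-27b (right) in each library, in percent, with Wilson intervals at 95% as bars, SIX2_EV in red and control_EV in blue. All 6 libraries lie below the dotted line at 50% for miR-23 (11.2% to 27.5%) and above it for miR-27 (60.4% to 70.2%), and triangles mark the third libraries.

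The opposite leanings gave each cluster its own ratio of miR-27 to miR-23. Reads of miR-27a-3p were 0.685 to 1.09 times those of miR-23a-3p over the 6 libraries, whereas reads of miR-27b-3p were 6.09 to 13.8 times those of miR-23b-3p. The lowest b ratio, in the third control_EV library, was above the highest a ratio, in the third SIX2_EV library. Summed over miR-23 and miR-27, the clusters were close to even: log2 of b over a reads (pseudocount of 1 read) was 0.09 ± 0.31 in SIX2_EV and -0.04 ± 0.25 in control_EV (SD, n = 3; exact permutation p 0.6). It was above 0 in the third library of each group, at 0.44 and 0.24, and below 0 in the other 4 libraries.

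Across both clusters, log2 of miR-27-3p over miR-23-3p was 1.12 ± 0.31 and 1.03 ± 0.06 (exact permutation p 0.6), and log2 of miR-24-3p over miR-23-3p was -0.75 ± 0.37 and -0.67 ± 0.43 (exact permutation p 1), in SIX2_EV and control_EV (SD, n = 3). miR-24-3p was lowest against miR-23-3p in the third libraries, at -1.05 and -1.16.

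The guinea pig named miR-27a-3p, with another last base, had 76.1, 153.9 and 59.1 CPM with SIX2_EV against 146.3, 129.2 and 114.4 CPM with control_EV, from 8 to 13 and from 40 reads upward. That was between 3.53% (2.08 to 5.95) and 7.24% (4.09 to 12.5) of all miR-27a-3p reads with SIX2_EV, and between 5.38% (3.97 to 7.24) and 7.75% (6.56 to 9.14) with control_EV. The sources used here do not state whether a named row counts reads of exactly that sequence or also near isoforms, so the shares are those of the deposited rows. They overlapped between groups, and by edgeR its log2 fold change was -0.45 (SE 0.70, adjusted p 0.87).

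The fifth question was about the arms. For miR-23a, miR-27a and miR-27b, and for miR-24 with the 3p reads of both hairpins pooled, the 5p arm held at most 9.27% of reads, and 5p arms were listed unevenly. No row named for the 5p arm of miR-23b was matched, so in the b cluster only miR-27b had both arms to compare. Sequences under about 5 reads in a library are mostly not listed there, so a 5p arm at 0 was read against the share that 5 reads would give there.

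miR-24-2-5p, which marks the a cluster gene, was read 8, 0 and 23 times with SIX2_EV and 43, 56 and 109 times with control_EV. Its share of miR-24 reads, pooled over both hairpins because the 3p reads cannot be assigned, was 5.0% (2.56 to 9.56) in the first SIX2_EV library and 9.27% (6.26 to 13.5) in the third. With control_EV it was 6.15% (4.60 to 8.18), 5.18% (4.01 to 6.66) and 7.93% (6.61 to 9.48). In the second SIX2_EV library 5 reads would have been 3.25%. The groups overlapped (exact permutation p 0.7), and its log2 fold change was -1.05 (SE 1.18, adjusted p 0.784 by edgeR).

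miR-27a-5p was read 0, 0 and 19 times with SIX2_EV and 31, 67 and 121 times with control_EV, or 0, 0 and 86.4 CPM against 113.4, 160.3 and 108.1 CPM. It was the only member whose groups did not overlap in CPM, as in 53 of 319 tested features that were lower in SIX2_EV (16.6%). By edgeR its log2 fold change was -1.99 (SE 1.51, adjusted p 0.647), a size that depends on the values at 0: it was -8.65 without the third SIX2_EV library (adjusted p 0.115 by edgeR) and -0.99 with zeros set to 4 reads (adjusted p 0.348). As a share of miR-27a reads it was 4.91% (3.17 to 7.54) in the third SIX2_EV library and 4.0% (2.83 to 5.62), 6.63% (5.25 to 8.33) and 6.82% (5.74 to 8.09) in control_EV, so the groups overlapped (exact permutation p 0.2). In the first and second SIX2_EV libraries 5 reads would have been 3.01% and 3.19%, not far below the first control_EV share.

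miR-23a-5p was listed in the third library of each group and in no other, with 8 reads in SIX2_EV and 114 in control_EV. Those were 2.31% (1.18 to 4.50) and 4.94% (4.12 to 5.90) of miR-23a reads. In the first and second control_EV libraries, with 757 and 1198 miR-23a-3p reads, 5 reads would have been 0.656% and 0.416%, so the arm's share there was well under that in the third library. Depth was too low in the first and second SIX2_EV libraries for the same statement, since 5 reads would have been 2.08% and 2.91%.

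miR-27b-5p, the partner of the most abundant member, had 6 reads in the third control_EV library, 0.154% (0.07 to 0.335) of miR-27b reads, and was listed at 0 in the other 5. In the first and second control_EV libraries 5 reads would have been 0.438% and 0.274%. miR-27a-5p, at 4.0% or more of its hairpin in every control_EV library, thus stood above miR-27b-5p in each of them. The 5p shares of miR-23a and of miR-27b gave an exact permutation p of 1 each.

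**Figure D5:**
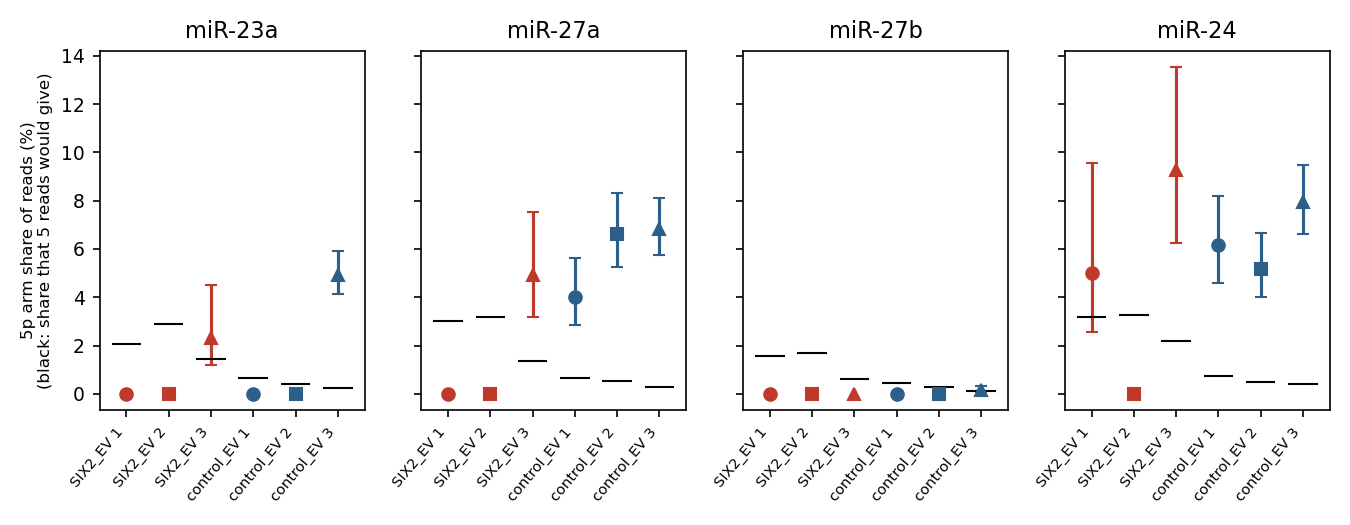
Share of each hairpin's reads that came from the 5p arm, in percent, by library, with Wilson intervals at 95% where the arm was listed, SIX2_EV in red and control_EV in blue. Black lines give the share that 5 reads would have made; miR-23a-5p appears only in the third libraries (triangles, 2.31% and 4.94%), miR-27b-5p only in the third control_EV library.

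Of the features that are no members and averaged at least 100 CPM, those whose course over the 6 libraries came nearest to the summed 3p members were miR-16-5p under its hamster and rat names, then miR-19b-3p, miR-144-3p and miR-146a-5p. The measure was the root mean square difference of centred log2(CPM + 1) values, which was 0.142 for both entries of miR-16-5p, whose reads are split over the names, and 0.198, 0.199 and 0.204 for the others, against a median of 0.832. Summed, the 3p members stood at 8661, 10901 and 8604 CPM with SIX2_EV against 12499, 12338 and 8630 CPM with control_EV, so the third libraries and the first SIX2_EV library lay close together.

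Among 17 names of miRNAs often studied with these clusters in blood vessels, 12 were matched and 10 tested. By edgeR 0 rose and 0 fell. Their median log2 fold change was 0.10, with 3 of 10 negative, beside -0.36 and 8 of 8 for the members and -0.28 for all tested features. Of the 10, miR-100-5p and miR-99a-5p had equal levels in every library and the same log2 fold change, 0.151, so the 10 are not all separate measurements. miR-126a-3p, an endothelial miRNA, stood at 437.3, 405.8 and 800.3 CPM with SIX2_EV against 526.6, 701.0 and 1397 CPM with control_EV, highest in the third libraries as miR-23b-3p was. Its other arm, miR-126a-5p, was highest in the third control_EV library (760.4 CPM) but lowest in the third SIX2_EV library (327.4 CPM). For miR-221-3p the levels were 3156, 2197 and 2205 CPM and 2205, 2479 and 2387 CPM, and the groups overlapped.

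In the marker lists of other cells 0 features were called by edgeR. The medians of the log2 fold change were -0.73 for 3 neuronal, -0.51 for 6 myeloid, -0.36 for 4 red blood cell and -0.48 for 2 endothelial features, and their part in the members' values was not tested. The red blood cell features summed to 14410 to 21818 CPM with SIX2_EV and 9241 to 30129 CPM with control_EV, and the endothelial ones to 827.1 to 1128 and 830.1 to 2158 CPM. All of these ranges overlapped.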

How the data were processed

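Per the labels' protocols, Trizol RNA went into TruSeq small RNA libraries, and the authors cleaned the reads of dimers, other RNA classes and repeats with ACGT101-miR. No source used here names the genome build or the counting settings. Per the file headers, the deposited table holds raw values, which are estimated counts per sequence and locus, and the authors' normalized signal, which is those counts times 1 factor per library (0.2267 to 3.3986).

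Rows of 1 name and sequence were summed (823 rows, 756 features) and rounded. Groups were compared over the whole table by edgeR 4.0.16 in R 4.3.3 (quasi-likelihood test, TMM, filterByExpr, Benjamini-Hochberg at 0.05), tested on simulated data. By TMM, 1 read was worth 0.894 to 13.99 CPM. Shares and ratios were compared by exact two-sided permutation over libraries. Alternatives were DESeq2 1.42.0, limma 3.58.1 (voom), other scalings and filters, a replicate block and left-out libraries. Replicates differed by more than counting error. All members were named, with the 5 features nearest to them and miRNAs from lists matched by exact name; members and lists were chosen with earlier results of these data known. All 6 hairpins matched RefSeq by symbol; miR-23b-3p had no mature entry.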

Additional observations from a re-analysis of the deposited data

How the results depend on the processing

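In 19 alternative analyses, 0 members were called. An unadjusted p under 0.05 was found for 38 of all features by edgeR, 61 by limma-voom, 96 in replicates 1 and 2 only, 96 without SIX2_EV replicate 3 and 9 without control_EV replicate 2; DESeq2 called 20 and edgeR 0 after adjustment. Of the members, 1 (miR-27a-5p) was under 0.05 unadjusted by limma-voom, in replicates 1 and 2 only and without SIX2_EV replicate 3. Of 150 member values recomputed, 6 turned in direction, namely miR-23b-3p with DESeq2 (log2 fold change 0.0021), limma-voom (0.0108), mature miRNAs with a mouse hairpin only (0.0601), without SIX2_EV replicate 2 (0.1265) and without control_EV replicate 3 (0.1355), and miR-27b-3p with mature miRNAs only (0.0499); the cause was not tested. The lowest adjusted p by edgeR was 0.0875, for miR-27a-5p in replicates 1 and 2, where SIX2_EV is at 0.

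Leaving out 1 library at a time, SIX2_EV minus control_EV ranged from -2.70 to 5.45 percentage points for the b share of miR-23-3p, -0.934 to 3.97 for that of miR-27-3p, and -0.0412 to 0.27 for log2 of b over a; the first and last turned without SIX2_EV replicate 3. The 5p shares ranged from -3.92 to 0.719 points for miR-24, -1.70 to 0.771 for miR-23a, -5.82 to -3.36 for miR-27a and -0.0768 to 0 for miR-27b. That of miR-24 turned without SIX2_EV replicate 2 and that of miR-23a without control_EV replicate 3. The member share of all reads ranged from -1.60 to -1.09 points, that of mature reads from -0.305 to 0.525, log2 of miR-24 over miR-23 from -0.33 to 0.0616 and log2 of miR-27 over miR-23 from -0.0258 to 0.27, turning without SIX2_EV replicate 3. The fitted log2 fold change ranged from -0.2734 to 0.1355 for miR-23b-3p, -0.42 to -0.03 for miR-23a-3p, -0.61 to -0.06 for miR-24-3p, -0.38 to -0.09 for miR-27a-3p, -0.19 to -0.06 for miR-27b-3p, -0.88 to -0.07 for the guinea pig named form and -1.55 to -0.48 for miR-24-2-5p. The values nearest 0 came without SIX2_EV replicate 3 for miR-23a-3p, miR-24-3p, miR-27b-3p and the guinea pig named form, without control_EV replicate 1 for miR-27a-3p, and without SIX2_EV replicate 2 for miR-24-2-5p. In replicates 1 and 2 only, log2 of miR-27 over miR-23 turned to -0.0544, and the 5p shares of miR-23a and miR-27b differed by 0. Between the third libraries (added after seeing the data) they were -0.888 points for the b share of miR-27, 1.35 for the 5p share of miR-24, -0.102 for the share of mature reads and 0.12 for log2 of miR-24 over miR-23.

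Same-numbered libraries deviated together with correlations of 0.209, 0.066 and 0.672. Only those numbered 3 correlated best with each other, and 3 values cannot decide pairing. With the replicate block, 0 members were called (lowest adjusted p 0.505 by edgeR), and the paired difference in member share of all reads was -1.31 points (exact permutation p 0.25, the smallest that 3 pairs allow). Keeping only sequences with the base that tells a from b was not run, since all of miR-23-3p and miR-27-3p hold it and miR-24-3p has none; the authors' factors cancel in shares. Depth limits the 5p arms in SIX2_EV, where 5 reads were 1.34% to 3.25% of miR-24 or miR-27a reads.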
